A study of Mus musculus with 30 samples.

Results

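After co-housing, stool bacteria of mice lacking Gpr15l (KO) were compared with those of wild-type mice (WT) in 10 libraries of a 16S rRNA gene segment, V4, 5 per genotype, out of 30 libraries in the study. Counts were taken of the reads of each sequence variant, a distinct V4 sequence, and 432 bacterial variants had reads in these 10 libraries out of 953 rows with reads in the whole study. Rows named as mitochondria were left out. Both groups were female mice, KO mice being Gpr15l-/-. They were placed at random at weaning, at about 4 weeks of age, into cages that held both genotypes, 2 to 7 mice to a cage, and stool was taken after 4 to 5 weeks there. Libraries are numbered as in the labels, 11 to 15 for KO and 16 to 20 for WT. Libraries 1 to 10, from the same design at weaning, serve as reference, 5 per genotype. Neither cage nor litter is given in the labels, and mice are not matched between the times, so the part of the cage was not tested and p-values measure the spread between these libraries only. No Gpr15l sequence is read in a 16S library, so genotype rests on the labels.

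Gpr15l codes for a small secreted protein made in barrier epithelia, which binds the receptor GPR15 on lymphocytes. Laboratory mice eat faeces, so cage mates exchange gut bacteria, and co-housing of genotypes is the usual way to ask whether a difference in the community goes with genotype or with the cage and the mother. Stool carries bacteria of the lumen together with those shed from the mucus layer. A share of reads is relative, since a rise of one taxon lowers the share of the others.

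The 5 KO libraries held 16193 to 41242 reads and the 5 WT libraries 20379 to 38361. Mitochondrial reads, from host or food, made up 0.0393% to 0.661% of KO reads and 0.0687% to 0.829% of WT reads, with the lowest shares in KO library 11 and WT library 19. These libraries stood apart in other ways too. The order Bacteroidales held 45.6% of bacterial reads in library 11 and 66.4% in library 19, against 16.9% to 38.8% in the other 8. Library 19 held 6.39% Lachnospiraceae, against 14.9% to 36.7% in the other 9. Library 11 and library 19 were each other's nearest library. Calls of variants and genera and the mean distances are also given without both, while shares and diversity are given with all 10 libraries. The part of what sets them apart was not tested.

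At the level of families, no difference between the co-housed genotypes passed the test. Lachnospiraceae, anaerobic Clostridia that ferment fibre, led both communities with 23.1% ± 6.09 of bacterial reads in KO and 22.9% ± 11.5 in WT (SD, n = 5). Mycoplasmataceae, bacteria without a cell wall, stood at 20.8% ± 10.4 in KO and 11.1% ± 6.60 in WT. Prevotellaceae, degraders of plant polysaccharides, stood at 14.5% ± 9.94 and 16.5% ± 5.50. In each of these families the range of one genotype overlapped that of the other.

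Helicobacteraceae, spiral bacteria of the mucus layer, held 8.58% to 11.6% of KO reads and 6.18% to 14.1% of WT reads. Muribaculaceae, Bacteroidales that use dietary and host glycans, held 5.72% to 11.9% in KO and 5.02% to 26.5% in WT, with the highest value in library 19. Oscillospiraceae, another clostridial family, were at 5.12% ± 2.67 in KO and 7.45% ± 3.26 in WT, Rikenellaceae at 3.56% ± 1.20 and 4.41% ± 0.850, and Deferribacteraceae at 5.12% ± 3.17 and 2.82% ± 1.98. Bacteroidaceae (1.30% ± 0.949 and 2.33% ± 2.57) and Marinifilaceae (1.05% ± 1.5 and 2.15% ± 1.31) completed the 10 leading families. The plot of families by library shows KO and WT ranges that overlap in each of the 10.

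**Figure D1:**
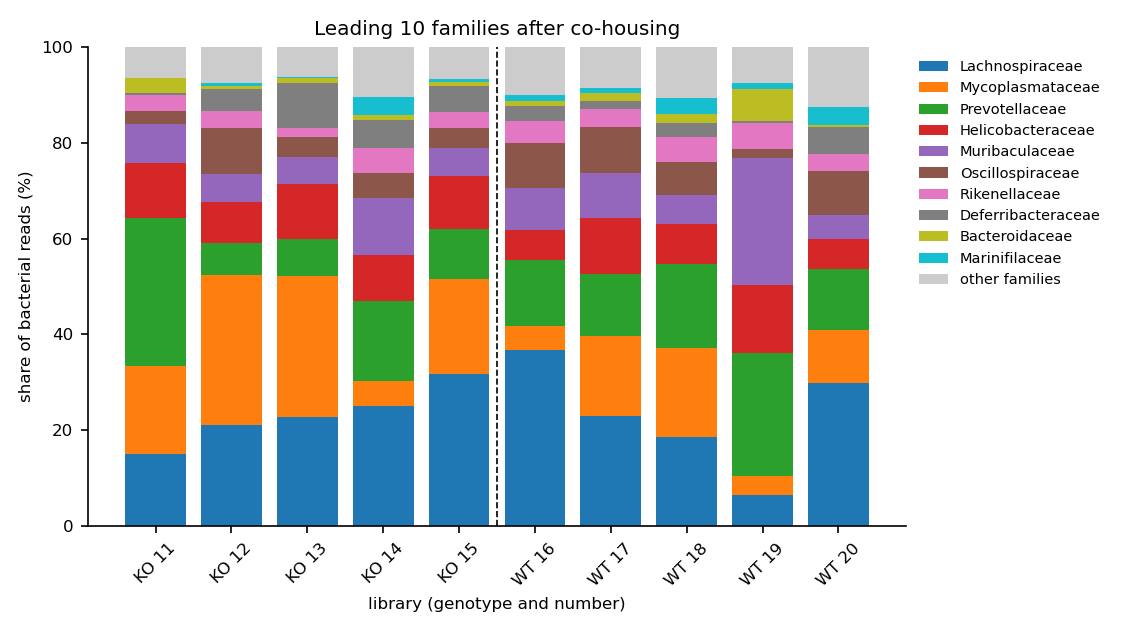
Share of bacterial reads (%) held by the 10 leading families in each of the 10 co-housed libraries, with KO libraries 11 to 15 left of the dashed line and WT libraries 16 to 20 right of it. Prevotellaceae reach 30.9% in KO library 11 and Muribaculaceae 26.5% in WT library 19, while Mycoplasmataceae range from 5.21% to 31.3% in KO and from 4.00% to 18.5% in WT.

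Counts were tested with edgeR's quasi-likelihood test with Benjamini-Hochberg adjustment over all features tested, at an adjusted p of 0.05, on features with at least 10 reads in at least 3 libraries. Of 35 families, 0 were called (0.0%), 1 had an unadjusted p under 0.05, and the smallest adjusted p was 0.382 by edgeR. DESeq2 called 0 families as well, with 4 at an unadjusted p under 0.05, while limma-voom called 1, the uncultured family RF39. Marinifilaceae had a log2 fold change (KO over WT) of -1.38 ± 0.70 (SE) and were called only without KO library 14, which held 3.70% against 0.122% to 0.609% in the other 4 KO libraries (log2 fold change -2.54, edgeR adjusted p = 0.0362; range of adjusted p over the alternatives 0.0362 to 0.854). At weaning, in the same fit, 8 of the 35 families were called (22.9%).

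Among 83 genera with reads, the abundant ones did not separate the genotypes. Mycoplasma, represented by a single variant, held 13.7%, 31.1%, 29.4%, 5.08% and 19.5% of reads in KO libraries 11 to 15 and 4.94%, 16.4%, 18.5%, 3.73% and 10.9% in WT libraries 16 to 20. KO libraries 12, 13 and 15 lay above all WT libraries and library 14 below 3 of them, and the log2 fold change was 0.99 ± 0.66 (SE; edgeR adjusted p = 0.529). Prevotellaceae UCG-001, a relative of Prevotella, held 6.33% to 29.1% in KO and 11.9% to 23.8% in WT (log2 fold change -0.35 ± 0.52, edgeR adjusted p = 0.911).

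The Lachnospiraceae NK4A136 group, clostridia whose relatives form butyrate, held 9.33%, 12.8%, 18.2%, 15.7% and 18.8% of reads in the KO libraries and 24.4%, 10.6%, 11.2%, 3.86% and 23.6% in the WT libraries. The WT values enclosed the KO values (log2 fold change 0.17 ± 0.72, edgeR adjusted p = 0.998). Unnamed Muribaculaceae (7.25% ± 2.59 in KO and 10.8% ± 8.39 in WT), unclassified Lachnospiraceae (3.93% ± 1.59 and 4.36% ± 2.83) and unclassified Oscillospiraceae (3.01% ± 2.66 and 3.58% ± 1.81) likewise overlapped. So did Alistipes, bile-tolerant Bacteroidales, at 2.91% ± 0.922 and 3.37% ± 0.679, and Bacteroides, which use many glycans, at 1.30% ± 0.949 and 2.33% ± 2.57. The other genera among the leading 15 were Lachnospiraceae UCG-001 (1.47% ± 1.53 and 2.19% ± 1.53), Colidextribacter (1.30% ± 0.315 and 2.13% ± 0.737), Quinella (1.20% ± 0.719 and 1.85% ± 0.762) and the uncultured Clostridia vadinBB60 group (0.899% ± 0.625 and 2.14% ± 0.439). In the last of these, 4 of the 5 KO libraries lay below all WT libraries, and only library 14, with 1.72%, reached into the WT range of 1.62% to 2.76% (log2 fold change -1.24 ± 0.84, edgeR adjusted p = 0.529).

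One genus of 71 tested was called (1.41%), with 10 at an unadjusted p under 0.05, 8 of them lower in KO. The [Eubacterium] siraeum group, clostridia related to fibre-degrading Ruminococcaceae, had 0 reads in all KO libraries and in WT libraries 16, 17 and 18, 0.226% in WT library 19 and 1.93% in WT library 20. The call thus rested on reads in 2 libraries. Against a floor of 3 counts per library, the WT mean of 0.431% ± 0.842 was at least 34.8-fold higher, and at least 4.56-fold higher without library 20. The edgeR adjusted p was 0.00351, 0.0421 without library 20 and 0.0189 without libraries 11 and 19 (range over the alternatives up to 0.175, with limma-voom). In fits on the 10 co-housed libraries or on the 20 weaning and co-housed libraries this genus did not pass the filter on low counts, and 0 genera were called.

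The other genera with the smallest p-values were not called. UBA1819, a clostridial genus, had reads in WT libraries 16 (0.0326%), 17 (0.282%) and 18 (0.00789%) and in 0 KO libraries (edgeR adjusted p = 0.0646; called without WT library 16, 19 or 20, at 0.0457, 0.0466 and 0.0421). RF39, an uncultured order, had reads in KO library 15 alone (0.0681%) and in all 5 WT libraries at 0.0564% to 0.332%, and Oscillospiraceae UCG-005 in KO library 15 alone (0.0713%) and in all WT libraries at 0.0163% to 0.329%. Both were called by limma-voom with all libraries (adjusted p = 0.00336 for each). Without library 15 both were called by edgeR (adjusted p = 0.00615 for each), and so was Intestinimonas, a butyrate former (edgeR adjusted p = 0.0312). Parabacteroides, polysaccharide-degrading Bacteroidales, stood at 0.0886% ± 0.0498 in KO and 0.295% ± 0.276 in WT. The Family XIII AD3011 group (3 WT libraries), Marvinbryantia (3) and Lachnospiraceae UCG-010 (2) had reads in WT libraries alone, at a WT mean of at most 0.0220%.

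In the other direction, Ureaplasma, wall-less bacteria that split urea, held 4.77% of reads in KO library 11 and 0.0219% to 0.263% in the other 4 KO libraries, against 0.0473% to 0.394% in WT (log2 fold change 2.19 ± 0.90, edgeR adjusted p = 0.217). Unclassified Erysipelotrichaceae were found in KO libraries 11 (0.491%), 13 (0.156%) and 15 (0.0259%) and in WT library 16 (0.0680%; log2 fold change 3.32 ± 1.51, edgeR adjusted p = 0.272). Without library 16 this difference was called (log2 fold change 8.36, edgeR adjusted p = 0.0104; range over the alternatives up to 0.977).

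Few differences between the genotypes were called at the level of variants. Of 292 variants tested, 3 were called (1.03%), all lower in KO, while 41 had an unadjusted p under 0.05, 11 higher and 30 lower in KO. Of these 41, 27 had 0 reads in all KO libraries, 10 had 0 reads in all WT libraries and 4 had reads in both. The 27 and the 10 were also all of the tested variants with 0 reads in KO (27 of 287 with reads, 9.41%) or in WT (10 of 287, 3.48%). Such a variant passed the filter on low counts only through its weaning libraries or the genotype that held it, so these counts are a description and support nothing. The 3 called variants are among the 27, and this limit holds for their p-values too. The tested variants held at least 97.3% of the bacterial reads of each co-housed library, while 145 of the 432 variants did not pass the filter.

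The first called variant belongs to Mucispirillum, a spiral inhabitant of colonic mucus in rodents and the main member of the Deferribacteraceae. Variants are named by genus and their row in the count table, which holds no sequences. Mucispirillum row 147 had 0 reads in the 5 KO libraries, 0 in WT libraries 16 and 19, and 1.70%, 2.96% and 5.70% of reads in WT libraries 17, 18 and 20. The WT mean of 2.07% ± 2.38 was at least 167-fold above the floor of the KO libraries, and at least 94.0-fold without library 20 (edgeR adjusted p = 0.0066; range over the alternatives 0.000201 to 0.267).

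Mucispirillum row 146 showed the opposite pattern. It held 0.475%, 4.63%, 9.33%, 5.70% and 5.31% of reads in KO libraries 11 to 15, 3.11% in WT library 16, 0.422% in WT library 19, and 0 reads in WT libraries 17, 18 and 20. Each of the 10 libraries thus held one of the variants and 0 reads of the other. Row 146 was not called by edgeR (log2 fold change 3.31 ± 1.97, adjusted p = 0.628) and was called by limma-voom (adjusted p = 0.00532). The third variant, row 145, stayed at or under 0.0696% in every library. Summed over its 3 variants, the genus held 5.12% ± 3.17 in KO and 2.82% ± 1.98 in WT (log2 fold change 1.1 ± 0.84, edgeR adjusted p = 0.606).

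**Figure D2:**
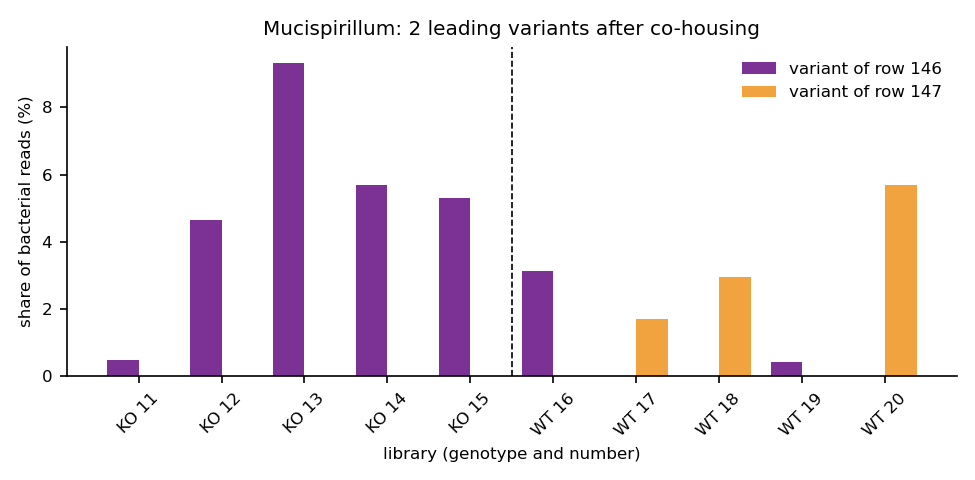
Share of bacterial reads (%) of the Mucispirillum variants of rows 146 and 147 in the 10 co-housed libraries, with KO left of the dashed line. All 5 KO libraries and WT libraries 16 and 19 hold row 146 alone, and WT libraries 17, 18 and 20 hold row 147 alone.

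The second called variant, Lachnospiraceae NK4A136 group row 295, had 0 reads in the KO libraries and in WT library 16, and 1.6%, 0.602%, 0.619% and 1.43% in WT libraries 17 to 20. Its WT mean of 0.851% ± 0.660 was at least 68.7-fold above the floor of the KO libraries, and at least 53.6-fold without library 17 (edgeR adjusted p = 0.0185; range over the alternatives 0.00185 to 0.190). The third, Lachnospiraceae UCG-001 row 398, had 0 reads in the KO libraries, 0.117%, 3.66%, 1.09% and 0.530% in WT libraries 16 to 19, and 0 in library 20. Its WT mean was 1.08% ± 1.5, at least 87.0-fold above the floor, and at least 35.0-fold without library 17 (edgeR adjusted p = 0.0224, and 0.110 without library 17; range over the alternatives 0.00259 to 0.190).

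These calls depended on the weaning libraries that shared the fit and its estimate of spread. In a fit on the 10 co-housed libraries alone, 0 of 250 variants were called and 18 had an unadjusted p under 0.05, with edgeR adjusted p of 0.267 for row 147 and 0.190 for each of rows 295 and 398. Without libraries 11 and 19, 1 variant was called, row 147. Leaving out KO library 12, 14 or 15 also left 1 call. DESeq2 called 6 variants and limma-voom 13, with 1 higher in KO in each. Of 21 alternatives, row 147 lost its call in 2, row 295 in 6 and row 398 in 11. For row 398 these included DESeq2 and leaving out KO library 11, 12, 14 or 15.

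The NK4A136 group, whose totals overlapped, also held variants with reads in few libraries. It had 32 variants with reads, 24 in both genotypes, 2 in KO alone and 6 in WT alone, beside 275, 58 and 99 of all 432 variants. Row 291 held 3.54% in KO library 11 and 7.24% in KO library 13, 0.192% in WT library 19 and 0 reads in the other 7. Row 299 held 10.1% in KO library 12, 0.0737% in WT library 19 and 0 elsewhere. Row 293 was found in KO libraries 14 (1.89%) and 15 (4.30%) and WT library 16 (3.12%) and in no other. Single libraries or a few of them thus held most reads of a variant, in several cases across genotypes.

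Row 243 of the same group held 6.97% in KO library 14, 3.00% in KO library 15 and 10.5% in WT library 16, with at most 1.95% in the other 7. Row 246 held 3.97%, 3.94%, 1.61% and 11.3% in WT libraries 17 to 20, 0.310% in WT library 16, 2.85% in KO library 13 and no more than 0.302% in each of libraries 11, 12, 14 and 15. Neither was called (edgeR adjusted p = 0.985 and 0.932). Rows 290 and 296, like row 295, had reads in WT libraries 17 to 20 alone, at 0.196% to 0.70% and 0.210% to 0.554% (edgeR adjusted p = 0.0882 for each). Limma-voom called rows 290 and 296 (adjusted p = 0.00848 for each), and edgeR without the filter called row 290 (adjusted p = 0.0479). Whether rows 290, 295 and 296 are strains or copies of the gene in one genome cannot be told from the counts.

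**Figure D3:**
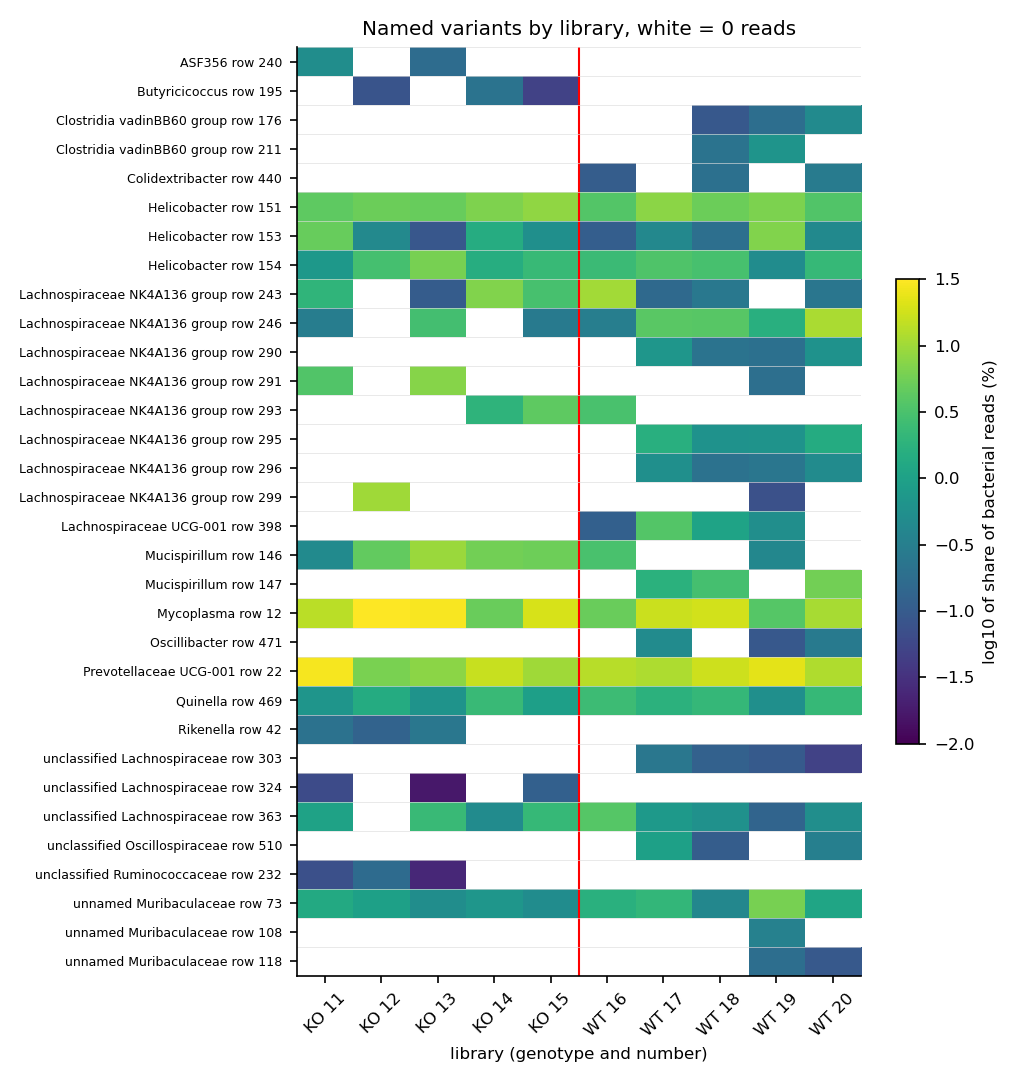
Log10 of the share of bacterial reads (%) of the variants with the highest mean share, the smallest p-values or reads restricted to one genotype, in the 10 co-housed libraries, KO left of the red line; white marks 0 reads. Mycoplasma row 12 and Prevotellaceae UCG-001 row 22 fill all libraries, NK4A136 group row 293 is found in KO libraries 14 and 15 and WT library 16, and rows 290, 295 and 296 are found in WT libraries 17 to 20.

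The most abundant variants were present in every library. Prevotellaceae UCG-001 row 22 held 28.7%, 6.29%, 7.72%, 16.3% and 10.1% in the KO libraries and 13.2%, 11.7%, 17.0%, 22.9% and 12.2% in the WT libraries. Library 11 was the highest and KO libraries 12, 13 and 15 the lowest. Helicobacter row 151 held 4.35% to 8.31% in KO and 3.51% to 7.80% in WT, and row 154 0.726% to 6.09% and 0.506% to 3.40%. Helicobacter row 153 set libraries 11 and 19 apart in both genotypes, with 4.79% and 6.85% against 0.0899% to 1.45% in the other 8. Unnamed Muribaculaceae row 73 was highest in library 19 (6.05% against 0.418% to 2.08% in the other 9).

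Some variants at low shares were also found in WT alone, and the limit given above for variants with 0 reads in a genotype holds for their p-values. Unclassified Oscillospiraceae row 510 (WT mean 0.283%), Oscillibacter row 471 (0.172%), Clostridia vadinBB60 group rows 176 (0.15%) and 211 (0.171%), Colidextribacter row 440 (0.119%) and unclassified Lachnospiraceae row 303 (0.103%) had 0 reads in KO, each with an edgeR adjusted p of 0.119. Unnamed Muribaculaceae rows 108 and 118 had reads in WT library 19, and row 118 in library 20 too, and in 0 KO libraries. Higher in KO without passing the edgeR test were Rikenella row 42 and ASF356 row 240, named after a member of the altered Schaedler flora. Row 42 was found in KO libraries 11 (0.208%), 12 (0.131%) and 13 (0.248%) and in 0 WT libraries (edgeR adjusted p = 0.0882). Row 240 was found in KO libraries 11 (0.526%) and 13 (0.175%). DESeq2 called rows 42 (adjusted p = 0.0221) and 211 (1.93e-06). Limma-voom called rows 440 (adjusted p = 0.0471) and 303 (0.0333). Rows 510, 471, 176 and 240 were called in no alternative. The ranges of KO and WT shares did not overlap for 3 of 432 variants (0.694%), Alistipes row 36 and, named after their values were seen, Clostridia vadinBB60 group rows 179 and 416. Alistipes row 36 held at most 0.107% in KO and 0.192% to 0.643% in WT (edgeR adjusted p = 0.474).

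Most variants were shared. Of the 432, 275 (63.7%) had reads in both genotypes and held on average 95.5% of reads (87.4% to 99.4% per library), 58 had reads in KO alone and 99 in WT alone. Variants found in WT alone held on average 7.92% of WT reads and those found in KO alone 1.18% of KO reads. At weaning 123 of 337 variants (36.5%) were found in both, and they held 88.4% of reads; the difference between the times was not tested. Present in all 10 co-housed libraries were 45 variants, which held 40.3% to 71.4% of a library's reads.

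After rarefying all libraries to 10491 reads, 18 of 422 variants (4.27%) were found in at least 3 of 5 WT libraries and in 0 KO libraries, and 4 of 422 (0.948%) in at least 3 KO libraries and in 0 WT libraries. No test goes with these counts. Before rarefying, KO library 13 held reads of 1 of the 18. The 18 held on average 5.69% of WT reads, and 14 of them (77.8%) were Clostridia, as were 277 of all 422 (65.6%), but WT library 16 held reads of only 4 of them against 14, 16, 14 and 12 in libraries 17 to 20. At weaning 12 of the 18 had reads in WT alone, 2 in both genotypes, 0 in KO alone and 4 in neither. Of all 337 variants with reads at weaning, 138 (40.9%) were in WT alone, 76 (22.6%) in KO alone and 123 in both. The 18 were chosen by their WT reads, so this is a description. The 4 on the KO side were Rikenella row 42, Butyricicoccus row 195, of a genus of butyrate formers, unclassified Ruminococcaceae row 232 and unclassified Lachnospiraceae row 324, which together held 0.279% of KO reads. At weaning the counts by the same rule were 35 for WT and 19 for KO.

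All 3 variants called after co-housing were also called at weaning, with the same sign: they are 100% of the co-housing calls and 4.92% of the 61 weaning calls (20.9% of 292 variants). Both calls come from the same fit, with a shared filter and spread, so this overlap is in part built in and supports nothing. At weaning Mucispirillum row 147 had reads in 4 of 5 WT libraries, NK4A136 row 295 in 3 and UCG-001 row 398 in 1, and all had 0 reads in the KO libraries. The 61 variants were chosen by their weaning values, so what follows describes them without a test. Of all 287 tested variants with reads after co-housing, 250 (87.1%) had reads in both genotypes, 10 in KO alone and 27 in WT alone. Of the 61, 58 had 0 reads in one genotype at weaning, and 45 of these 58 had reads in both after co-housing. Over the 61, 2 had reads in KO alone after co-housing, 10 in WT alone and 2 in neither. The median log2 fold change of the 20 that were higher in KO was 8.33 at weaning and 0.25 after co-housing. For the 41 that were lower in KO it was -7.80 and -1.32, beside a median of -0.42 over all 292 variants after co-housing.

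The change of the genotype difference from weaning to co-housing was tested as an interaction. It was called for 18 variants (6.16%), 12 upward and 6 downward in KO relative to WT, 15 of them among the 61. The weaning difference is a term of this test, so that overlap is in part built in and supports nothing. Several variants described next were chosen by their p at weaning, and their p of the change shares that choice. Without libraries 11 and 19 the change was called for 13 variants, all among the 18. Where a group was at 0 reads, the fitted size of this change depends on the offset the model adds to counts, so the shares are given in its place. Bacteroides row 48 was at 0 reads in the KO libraries and 2.43% ± 2.10 in the WT libraries at weaning, and after co-housing at 0.522% ± 0.399 in KO (4 of 5 libraries) and 0.313% ± 0.404 in WT (3 of 5; edgeR adjusted p of the change = 0.00126). Alistipes row 137 went from 0 reads in KO and 1.26% ± 1.06 in WT to 0.639% ± 0.912 in KO, with 1.96% and 1.24% in libraries 14 and 15 and 0 in the other 3, and 1.07% ± 0.464 in WT (edgeR adjusted p of the change = 0.00521). Prevotellaceae UCG-001 row 26 was at 0 reads in KO and 0.762% ± 0.275 in WT at weaning and was found in 4 of 5 KO libraries after co-housing, at a KO mean of 0.209% ± 0.180.

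Variants that were in KO alone at weaning were found in WT after co-housing. Unnamed Muribaculaceae row 60 was at 0.627% ± 0.697 in KO and 0 reads in WT at weaning, and at 0.146% ± 0.146 in KO and 0.523% ± 0.422 in WT after co-housing, in 5 of 5 WT libraries (edgeR adjusted p of the change = 0.00521). Gastranaerophilales row 168, of a non-photosynthetic lineage near the Cyanobacteria, was at 1.88% ± 1.80 in KO and 0 reads in WT at weaning and was found in 4 of 5 WT libraries after co-housing, at 0.159% ± 0.287. Prevotellaceae UCG-001 row 25 held 3.73% ± 7.00 of KO reads at weaning and 0.0174% ± 0.0194 after co-housing, with 0.0203% in WT library 20 alone among WT libraries.

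Odoribacter row 97, of a genus that forms short-chain fatty acids, unclassified Lachnospiraceae row 363 and unnamed Muribaculaceae row 112 had 0 reads in KO at weaning and were found in 2, 4 and 2 KO libraries after co-housing. Unclassified Lachnospiraceae row 282 had 0 reads in WT at weaning and was found in 3 WT libraries. NK4A136 group row 291 and ASF356 row 240 were held mainly by the other genotype after co-housing. Row 291 was in 5 of 5 WT libraries at weaning and 0 KO libraries, and in KO libraries 11 and 13 and WT library 19 after co-housing (edgeR adjusted p of the change = 0.0243). ASF356 row 240 was in 1 WT library at weaning (edgeR adjusted p of the change = 0.0199).

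Of 71 genera, 17 were called at weaning (23.9%), and edgeR called 0 of these 17 after co-housing. Akkermansia, a degrader of mucin, and Escherichia-Shigella, facultative anaerobes, had been higher in KO at weaning, at 1.54% ± 2.35 and 0.183% ± 0.377, and had 0 reads in all 10 co-housed libraries, which allows at most 0.00729% to 0.0187% of a library's reads. These limits cover counting error only. Of the other 15 genera, all found in both genotypes after co-housing, 11 kept the sign of the weaning difference and 4 did not. The Rikenellaceae RC9 gut group, 0.0349% ± 0.0353 in KO and 1.00% ± 0.484 in WT at weaning, stood at 0.176% ± 0.186 and 0.440% ± 0.296 after co-housing (log2 fold change -1.47 ± 0.91, edgeR adjusted p = 0.494). Odoribacter stood at 0.122%, 0.591%, 0.224%, 3.70% and 0.609% in KO and 1.38%, 1.06%, 3.37%, 1.17% and 3.77% in WT, so that 4 KO libraries lay below all WT libraries and library 14 did not (log2 fold change -1.09 ± 0.75, edgeR adjusted p = 0.529).

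Blautia, acetate-forming Lachnospiraceae, was found in 1 of 5 WT libraries at weaning and in 5 of 5 after co-housing, at 0.0725% to 0.223% against 0.137% to 0.995% in KO (log2 fold change 1.6 ± 1.12, edgeR adjusted p = 0.529). Gastranaerophilales stood at 0.661% ± 1.01 in KO and 0.545% ± 0.360 in WT. Tuzzerella, with 0 reads in KO at weaning, was at 0.108% ± 0.0825 and 0.161% ± 0.0927, and the Oscillospiraceae NK4A214 group, likewise at 0 reads in KO at weaning, at 0.0403% ± 0.0307 and 0.0781% ± 0.0316. Ruminococcus, unclassified Tannerellaceae, unclassified Flavobacteriaceae and the [Eubacterium] nodatum group each had a mean of at most 0.0295% in both genotypes. The plot of genera called at weaning shows values nearer to 0 after co-housing for all 15, which were chosen by their weaning values.

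The interaction was called for 3 genera (4.23%), all upward in KO relative to WT. Clostridia UCG-014, an uncultured clostridial lineage, had 0 reads in KO at weaning and 0.15% ± 0.157 in WT, and was at 0.185% ± 0.346 in KO and 0.0923% ± 0.0440 in WT after co-housing (edgeR adjusted p of the change = 0.00241). Of the KO libraries, 14 held 0.802% and none of the others more than 0.0864%. Unclassified Erysipelotrichaceae went from 0 reads in KO and 0.0505% ± 0.0365 in WT to 0.134% ± 0.209 and 0.0136% ± 0.0304 (edgeR adjusted p of the change = 0.0025), and Ureaplasma from 0.349% ± 0.210 and 1.36% ± 1.13 to 1.08% ± 2.07 and 0.202% ± 0.133 (log2 change 4.84 ± 1.29, edgeR adjusted p of the change = 0.00945), a KO mean to which library 11 added most. The Ureaplasma call ended without library 11, without libraries 11 and 19, and with limma-voom (adjusted p up to 0.253 over the alternatives). Without libraries 11 and 19, 3 genera were called, 2 of them among these.

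**Figure D4:**
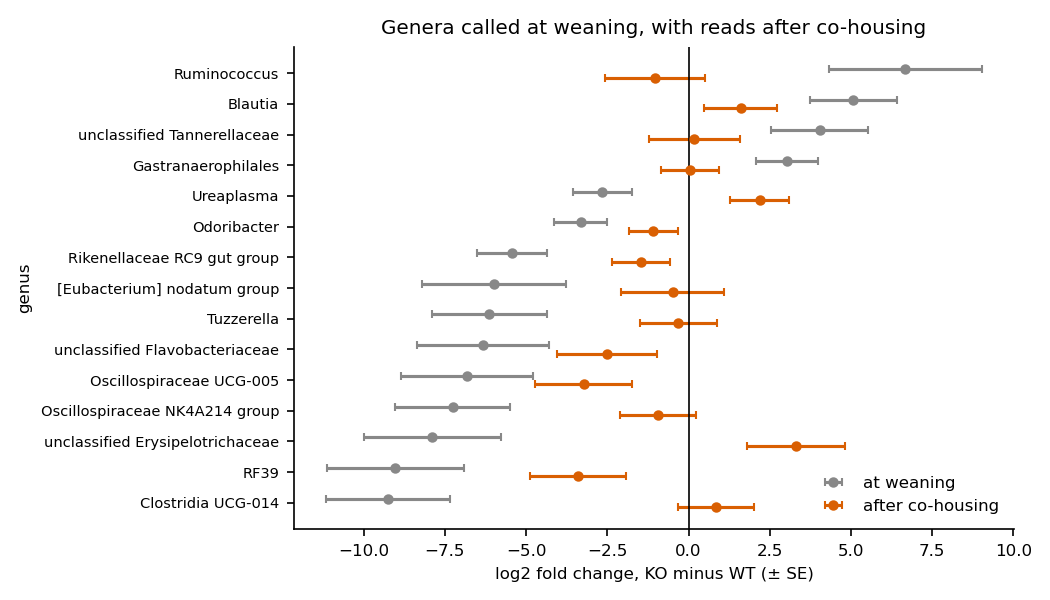
Log2 fold change (KO minus WT, ± SE from edgeR) of the 15 genera that were called at weaning and had reads after co-housing, at weaning (grey) and after co-housing (orange). Ruminococcus, Clostridia UCG-014, unclassified Erysipelotrichaceae and Ureaplasma lie on the other side of 0 after co-housing; estimates of genera with 0 reads in a group depend on the offset the model adds to counts.

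By function and lineage, 6 lists of taxa were described by the variants tested in each. All 292 variants had 0 called higher, 3 called lower and a median log2 fold change of -0.42. Of their fold changes, 117 lay above and 170 below 0. Bacteroidales had 79 variants tested, 0 called, 23 above and 53 below 0 and a median of -0.74; their summed share was 28.0% ± 13.3 in KO and 36.9% ± 16.7 in WT. Butyrate-forming Clostridia had 25 tested, 0 called and a median of -0.23, with summed shares of 2.81% ± 0.921 and 2.94% ± 1.36. Genera of mucus or epithelium had 9 tested, 1 called lower (Mucispirillum row 147) and a median of 0, with 15.6% ± 3.41 in KO and 12.2% ± 1.99 in WT. Proteobacteria with Desulfobacterota had 9 tested and 0 called, with 2.26% ± 0.748 and 2.58% ± 0.685.

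Lactic acid bacteria and bifidobacteria had 3 variants tested and 0 called, with summed shares of 0.0311% to 1.07% in KO and 0% to 0.172% in WT, and Erysipelotrichales 2 tested and 0 called, with 0.160% ± 0.232 and 0.0240% ± 0.0255. Library 11 was the highest of the 10 for both. Within the mucus list, Helicobacter held 11.6%, 8.58%, 11.4%, 9.55% and 11.1% of reads in KO and 6.25%, 11.7%, 8.34%, 14.1% and 6.18% in WT (log2 fold change 0.09 ± 0.56, edgeR adjusted p = 0.998). Candidatus Arthromitus, segmented filamentous bacteria that attach to the ileal epithelium, were found in 2 KO and 4 WT libraries at no more than 0.0638%. Akkermansia was not detected.

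Diversity was lower in KO on average, by a difference that did not pass the tests. Richness, the number of variants expected at 10491 reads, was 142, 116, 177, 189 and 210 in the KO libraries and 250, 210, 239, 184 and 206 in the WT libraries. KO libraries 11, 12 and 13 lay below all WT libraries, while 14 and 15 lay within their range. The means were 167 ± 37.7 and 218 ± 26.7 (SD, n = 5; difference -51.0, exact two-sided permutation p = 0.0556, adjusted p = 0.116 over 4 measures). Shannon indices averaged 3.45 ± 0.420 in KO and 3.94 ± 0.194 in WT (exact permutation p = 0.0794, adjusted 0.116) and the inverse Simpson index 12.4 ± 5.74 and 18.2 ± 4.69 (exact permutation p = 0.119, adjusted 0.119). The smallest p such a test of 5 against 5 libraries can give is 0.00794.

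Composition was compared by Bray-Curtis distance, which runs from 0 for equal shares to 1 for no shared variant. Distances averaged 0.506 among KO libraries, 0.450 among WT libraries and 0.512 between the genotypes. Without libraries 11 and 19 these averages were 0.479, 0.388 and 0.483. Genotype accounted for 17.6% of the summed squared distances (exact permutation p = 0.0873, adjusted 0.116), against 23.4% at weaning (exact permutation p = 0.00794); the difference between the times was not tested. The nearest library was of the same genotype for 6 of 10 libraries after co-housing and 8 of 10 at weaning. KO library 14 and WT library 16 were each other's nearest at a distance of 0.306, and so were KO library 11 and WT library 19 at 0.450, KO libraries 12 and 13 at 0.396, and WT libraries 17 and 18 at 0.266.

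Other measures of distance and other levels gave unadjusted p-values on both sides of 0.05. The share of genotype, 0.176 with Bray-Curtis distances, was 0.181 with Jaccard distances of presence (exact permutation p = 0.0317), 0.170 with Aitchison distances of log-ratios (exact permutation p = 0.0397) and 0.193 with Bray-Curtis distances of square roots of proportions (exact permutation p = 0.0317), each of which gives rare variants more weight. It was 0.139 with counts summed to genera (exact permutation p = 0.310) and 0.145 with counts summed to families (exact permutation p = 0.317). Without KO library 14 the share was 0.233 (exact permutation p = 0.0159). Richness of genera in place of variants differed by -7.33 (exact permutation p = 0.0238).

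**Figure D5:**
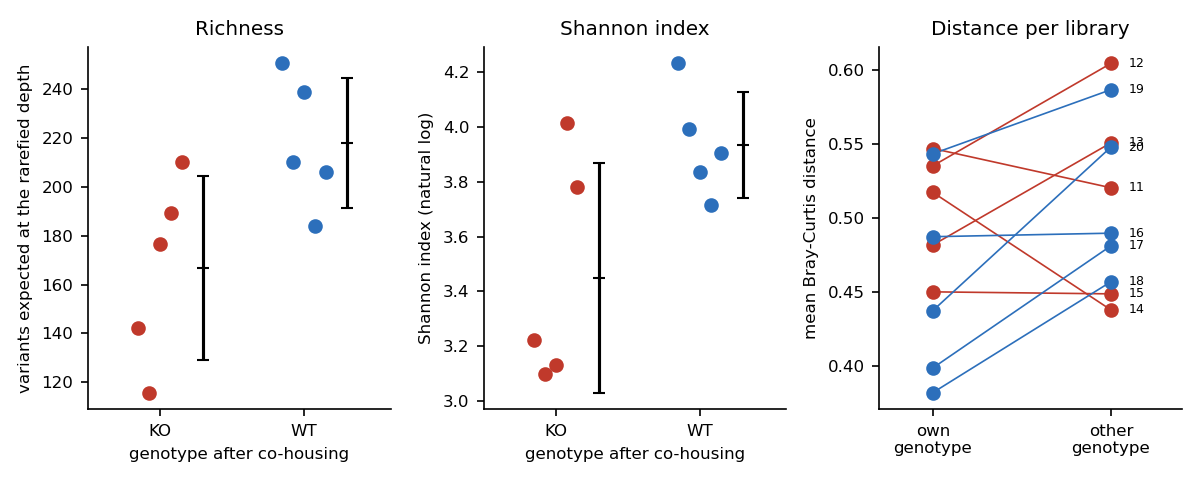
Richness (variants expected at 10491 reads) and Shannon index of the co-housed KO (red) and WT (blue) libraries, each point a library and bars the mean ± SD (n = 5), and, on the right, each library's mean Bray-Curtis distance to its own and to the other genotype. KO libraries 11, 12 and 13 have the lowest richness, and KO libraries 11, 14 and 15 lie nearer on average to the WT libraries than to their own genotype.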

How the data were processed

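Stool DNA was amplified at V4 of the 16S rRNA gene and sequenced as paired ends, per the labels' protocols. The authors deposited raw counts of reads per variant and library, in a table named as DADA2 output; its settings, taxonomic reference and filters were not stated in the labels. R 4.5.1 and limma appear in the submitters' processing notes, their use unstated. If low counts were removed earlier, the lower bounds of folds would be too high, and only 1 of 1962 counts above 0 in the co-housed libraries equalled 1. Members and lists were chosen with earlier results of these data known.

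Variants were fitted with edgeR 4.0.16 (R 4.3.3, TMMwsp scaling, robust glmQLFit and glmQLFTest) on the 20 weaning and co-housing libraries, and genera and families on all 30. Each fit had a mean per group and a spread common to the groups. No batch labels were given. The remaining libraries, taken after a re-separation period, had library names of another form and shared 0 variant rows with the other 20. They entered the filter and the spread for genera and families, and the part of this was not tested. Tests used Benjamini-Hochberg adjustment at 0.05 and features with at least 10 reads in at least 3 libraries. SE is the log2 fold change over the square root of F. Floors are 3 counts per library. Of the bacterial reads, 90.3% had a genus name; the others were named by family. Single values were compared by exact permutation over 252 orderings and composition over 126 splits. Features named were those called, the leading 10 families, 15 genera and 15 variants, the smallest p-values after co-housing (10 genera, 15 variants) and at weaning (17 called genera, 10 variants), up to 8 variants restricted to each genotype, and genera of mucus. The pairs of libraries within groups differed by a chi-square of at least 30.9 per degree of freedom, so none was a repeat. Alternatives were other scalings (TMM, DESeq2 1.42.0 size factors, library size), filters, DESeq2, limma-voom (limma 3.58.1), other sets of libraries and leaving each library out. The steps were tested on simulated data. Python 3.11.15 with numpy 2.4.6, pandas 2.3.3, scipy 1.17.1 and matplotlib 3.10.9 was used.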

Additional observations from a re-analysis of the deposited data

Results flagged for a closer look

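Single libraries stood far from the other 4 of their group in 9 of 60 groups of values checked. The rule was a gap to the nearest library of more than 0.71 of the group's range, a limit that chance passes in about 1 of 20 groups. Most of the 9 are a family and its main genus, which repeat each other, so the count of 9 cannot be set against that rate. In WT library 19 these were Muribaculaceae (26.5%, with 25.5% for the unnamed Muribaculaceae among its genera) and Bacteroidaceae (6.81%, all of it Bacteroides, 6.81%). In KO library 11 it was Bacteroidaceae (2.97%, all Bacteroides, 2.97%), in KO library 14 Marinifilaceae (3.70%, all Odoribacter, 3.70%) and in KO library 12 unclassified Oscillospiraceae (7.64%).

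The genotype difference after co-housing minus that at weaning (log2, edgeR interaction with adjusted p under the threshold) was 4.84 for Ureaplasma, 11.20 for unclassified Erysipelotrichaceae and 10.09 for Clostridia UCG-014. Among the variants named, it was 13.52 for Bacteroides row 48, 10.76 for Alistipes row 137, 9.94 for Prevotellaceae UCG-001 row 26, 9.76 for Odoribacter row 97, 8.96 for unnamed Muribaculaceae row 112, 8.90 for unclassified Lachnospiraceae row 363, 15.98 for NK4A136 group row 291 and 13.62 for ASF356 row 240. It was -10.58 for Prevotellaceae UCG-001 row 25, -12.21 for Gastranaerophilales row 168, -12.63 for unnamed Muribaculaceae row 60 and -8.87 for unclassified Lachnospiraceae row 282. Apart from Ureaplasma, each of these had a group at 0 reads, so the size depends on the offset the model adds to counts. At a threshold of 0.05, row 282 lost its call in 22 of 30 alternatives and row 112 in 14 of 30. Without KO library 1 the calls of rows 25, 97, 240 and 363 ended, and so did that of row 25 without WT library 20, that of row 97 without KO library 14 and that of Ureaplasma without KO library 11. Besides rows 112 and 282, limma-voom called neither rows 97, 137, 240 and 363 nor Ureaplasma and Clostridia UCG-014, and DESeq2 did not call row 240.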

How the results depend on the processing

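No paired analysis was possible because the labels give neither the cage nor the identity of a mouse over time. The weaning and co-housed libraries were treated as independent, and whether they come from the same mice is not given. The 3 variants called after co-housing became 5 without the filter, 0 with at least 20 reads in at least 5 libraries (18 with an unadjusted p under 0.05), 6 with DESeq2, 13 with limma-voom, 1 without libraries 11 and 19, 0 on the 10 co-housed libraries, and 1 to 4 when single libraries were left out (1 without KO library 12, 14 or 15). With limma-voom 2 other genera were called, RF39 and Oscillospiraceae UCG-005, and the [Eubacterium] siraeum group lost its call. The 1 genus became 0 on 10 or 20 libraries and 1 to 4 without single libraries (4 without library 15, 3 without 16, 2 without 19 or 20). The 0 families became 1 with limma-voom and 0 to 1 without single libraries (1 without library 14 or 15). The change from weaning was called for 9 variants with limma-voom, 27 with DESeq2 (14 of them among the main 18), 22 without the filter (17 among the 18) and 8 to 26 without single libraries (main 18; 8 without KO library 1, 11 without KO library 4 or WT library 17), and for 7 genera with TMM, 8 without the filter, 5 with the stricter filter, 8 with DESeq2 and 3 to 8 without single libraries (main 3; 8 without KO library 4 or 12 or WT library 6, 7 without WT library 19, 6 without WT library 8 or 10 or KO library 13). R2 of genotype (main 0.176, p = 0.0873) had an unadjusted p under 0.05 with Jaccard (0.181), Aitchison (0.170) and square-root distances (0.193), not with genera (0.139) or families (0.145), and was 0.158 to 0.233 without single libraries (exact permutation p = 0.0159 to 0.246). Richness differed by -7.33 at genus level and by -61.9 to -38.3 without single libraries, the Shannon index by -0.63 to -0.40 and the inverse Simpson index by -8.02 to -4.12. Variants restricted to a genotype in at least 4 of 5 libraries were 0 for KO and 6 for WT; without single libraries they were 1 to 7 for KO and 8 to 31 for WT (31 without KO library 15; 8 to 10 without WT library 17, 18, 19 or 20). The median log2 fold change of all variants was -0.42 with TMMwsp, -0.26 with TMM and -0.14 with DESeq2 size factors, a shift that applies to every fold change. Of 85 named features not called, 13 were called under some alternative, and 26 changed sign in at least 1 alternative without a call there. Called features kept their direction under each alternative that tested them. Of the 432 variants, 145 had too few reads to be tested, so differences in them were not assessed.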

Other observations

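Lactobacillus, lactic acid bacteria of the small and large intestine, had 7 variants with reads after co-housing, 2 in both genotypes, 5 in KO alone and 0 in WT alone, beside 275, 58 and 99 of all 432 variants, while the genus as a whole was found in 5 KO libraries and 4 WT libraries (0.363% ± 0.423 and 0.10% ± 0.0745; SD, n = 5). KO library 11 held 1.07%. All 12 Alistipes variants and all 4 Helicobacter variants had reads in both genotypes. Spirochaetota, spiral bacteria, were found in KO libraries 14 and 15 and WT libraries 17 and 18 and had 0 reads in the other 6. Desulfobacterota, sulphate reducers, stood at 1.34% ± 0.356 in KO and 1.79% ± 0.889 in WT. These features were chosen after their values were seen.

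Variants in exactly 2 of the 10 libraries numbered 50, and 16 of them were shared by a KO and a WT library. WT libraries 16 and 17 shared 5 such variants, as did WT libraries 18 and 19 and WT libraries 18 and 20. The median over the 45 pairs of libraries was 1, and pairs of a KO and a WT library are the larger part of the 45. Richness averaged 167 in KO and 218 in WT, and the part of richness in this sharing was not tested.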
